A study of Mus musculus with 18 samples.

Results

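The 10 genes *Fos*, *Fosb*, *Fosl1*, *Fosl2*, *Jun*, *Junb*, *Jund*, *Batf*, *Batf3* and *Atf3*, which encode subunits of the transcription factor AP-1, were followed through 18 RNA-seq libraries of mouse CD4 T cells. They were chosen by name as the FOS and JUN genes together with *Batf*, *Batf3* and *Atf3*, out of 37991 genes in the count data. All 10 had enough reads to be tested. The cells were enriched from the spleens of male and female Tg4 mice of 6 to 12 weeks, a strain in which T cells carry one transgenic TCR for a peptide of myelin basic protein. All 6 groups carried this transgene and had 3 libraries each. Naive cells (N) came from control mice injected with PBS and were predominantly, not wholly, naive. Tolerized cells (T) came from mice given 7 subcutaneous doses of the 4Y peptide in escalating amounts, every 3 to 4 days. N_0 and T_0 cells were harvested after a last injection of PBS, and N_Ag and T_Ag cells 2 h after a last injection of 80 μg of peptide antigen (Ag). N_PI and T_PI cells were instead stimulated in culture for 2 h with PMA at 20 ng/ml, which activates protein kinase C, and the calcium ionophore A23187 at 2 μM, a mixture abbreviated PI that bypasses the TCR. No cultured group without PI was among these libraries, so PI and the culture itself cannot be told apart.

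AP-1 is a dimer of basic leucine zipper (bZIP) proteins. JUN proteins pair with each other or with FOS proteins, which need a JUN partner, and the dimers bind a short palindromic DNA site. BATF proteins pair with JUN in place of FOS and work together with IRF4 or IRF8, while ATF3 bridges the AP-1 and the ATF/CREB families. In T cells, AP-1 formed downstream of the Ras-MAP kinase pathway binds DNA together with NFAT, and several of these genes, *Fos*, *Fosb*, *Jun* and *Junb* among them, are immediate-early genes that need no new protein to be switched on.

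Promoter sequences were at hand for 9 of the 10 genes, from RefSeq on GRCm38.p6, and for 5 of them the 250 bases before the annotated start are shown because these genes gave the clearest contrasts between the stimuli. *Fos* and *Fosb* had the highest levels after PI, *Fosl2* and *Batf* rose many-fold with Ag, and *Jun* fell with Ag in naive cells. All are written 5′ to 3′ on the strand of the gene, and capitals mark the CRE core TGACG, the AP-1-like site TGACNTCA and the TATAAA box.

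Fos, chr12:85473640-85473889, + strand: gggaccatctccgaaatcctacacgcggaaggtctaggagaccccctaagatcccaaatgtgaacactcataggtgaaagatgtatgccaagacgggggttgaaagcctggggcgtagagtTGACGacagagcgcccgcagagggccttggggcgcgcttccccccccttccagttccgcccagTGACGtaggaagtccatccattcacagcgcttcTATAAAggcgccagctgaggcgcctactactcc

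Fosb, chr7:19310046-19310295, - strand: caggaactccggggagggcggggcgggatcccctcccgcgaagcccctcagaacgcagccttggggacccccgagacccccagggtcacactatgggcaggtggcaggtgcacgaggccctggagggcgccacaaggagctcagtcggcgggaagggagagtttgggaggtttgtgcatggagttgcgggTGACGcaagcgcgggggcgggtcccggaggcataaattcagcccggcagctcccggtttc

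Fosl2, chr5:32136222-32136471, + strand: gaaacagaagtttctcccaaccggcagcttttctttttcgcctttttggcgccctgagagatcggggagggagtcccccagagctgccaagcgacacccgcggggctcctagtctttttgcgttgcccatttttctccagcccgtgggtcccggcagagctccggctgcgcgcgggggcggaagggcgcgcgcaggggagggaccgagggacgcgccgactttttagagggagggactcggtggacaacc

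Jun, chr4:95052223-95052472, - strand: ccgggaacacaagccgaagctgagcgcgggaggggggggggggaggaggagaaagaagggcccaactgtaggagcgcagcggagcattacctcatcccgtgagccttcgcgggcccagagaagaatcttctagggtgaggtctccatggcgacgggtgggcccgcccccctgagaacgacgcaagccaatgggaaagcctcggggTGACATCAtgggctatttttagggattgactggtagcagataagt

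Batf, chr12:85686470-85686719, + strand: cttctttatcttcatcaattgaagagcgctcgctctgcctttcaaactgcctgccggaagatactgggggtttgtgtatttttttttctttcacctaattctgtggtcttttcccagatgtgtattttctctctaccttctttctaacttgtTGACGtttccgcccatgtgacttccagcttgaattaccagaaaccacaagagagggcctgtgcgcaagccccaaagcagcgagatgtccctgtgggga

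On both strands, TGACG was found before the start of 5 of the 9 genes (*Fos*, *Fosb*, *Junb*, *Batf* and *Atf3*), against 17.8% of 32851 promoter windows of the same length. In *Fos* it lay 66 to 62 bases before the start, and a second match lay 129 to 125 bases before it. The match in *Fosb* lay at a like distance, 60 to 56 bases before the start. TGACNTCA, which contains TGACG where N is G, was found in *Jun* alone, 45 to 38 bases before the start, and in 7.49% of all windows. TATAAA was found in *Fos* alone, 33 to 28 bases before the start, and in 12.4% of all windows. GGAAA, the core recognized by NFAT, was found in 3 of the 9 (*Jun*, *Batf* and *Batf3*) and in 55.6% of all windows. Neither TGANTCA, found in 6.75% of all windows, nor the CArG box bound by SRF, found in 1.47%, was present in any of the 9 windows, which says only that these letters are not in this stretch. *Fosl2* and *Jund* held none of the motifs searched.

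Total counts ranged from 10758571 to 24119489 per library. The 8 CD4 T cell markers examined summed to between 19338 and 62777 normalized counts in every library. Markers of other cells were present at lower levels. Those of neutrophils summed to 76.4 to 395 normalized counts in the N_0 and N_Ag libraries, 1760 to 4144 in T_0 and T_Ag, 63.7 to 172 in N_PI and 396 to 674 in T_PI, and of the 10 genes in this list 4 were at 0 in all of N_PI and none in the other groups. The 9 macrophage markers summed to 504 to 707 in N_0, 1323 to 1683 in T_0, 538 to 1673 in N_Ag and 950 to 1412 in T_Ag, and B cell markers to at most 2691 in any library. Their part in the differences between naive and tolerized cells was not tested beyond a fit adjusted for scores of erythroid and of myeloid markers, whose values are given where a call was lost. Sex moved with the stimulus. All N_PI and T_PI libraries, 2 of the T_0 and 1 of the T_Ag libraries carried 5111 or more Y-linked reads, and the other 9, among them all of N_0 and N_Ag, had at most 18 and at least 18647 reads of *Xist*. A pair of libraries stood apart for members of the family, N_0 replicate 1, with more *Fos*, *Fosb* and *Atf3* and less *Junb* than the other N_0 libraries, and N_Ag replicate 3, with more *Fos* and *Fosb*. Some of the values that moved past the threshold or by over 1.5 times without them are given both ways. The pair was chosen after seeing these data, so adjusted p-values without it rest on an understated spread. N_0 replicate 1 also had B cell markers summing to 1846, against 348 and 452 in N_0 replicates 2 and 3. Its dendritic cell markers summed to 850, against 379 and 436, while its macrophage markers, at 562, lay between 504 and 707. The part of B and dendritic cells in its values was not tested.

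The genes lie on 7 chromosomes of NCBIM37 (mm9), the build of the counts. *Fos* (chr12:86814840-86818223, + strand), *Fosb* (chr7:19888070-19895394, - strand) and *Fosl2* (chr5:32438845-32460204, + strand) have 4 exons each when overlapping exons are merged. *Fosl1* (chr19:5447703-5455945, + strand) shares 1162 of its 1707 exonic bases with *Ccdc85b* on the opposite strand, so its level is uncertain as far as the counting did not keep the strands apart. *Jun* (chr4:94715725-94718913, - strand), *Junb* (chr8:87500811-87502617, - strand) and *Jund* (chr8:73221638-73224515, + strand) have a single exon. *Jund* and *Jun* overlap *Gm11175* by 543 bases and *BC042782* by 232 bases, both on the opposite strand. *Batf* (chr12:87027619-87050037, + strand) and *Batf3* (chr1:192922293-192932822, + strand) have 3 exons, and *Atf3* (chr1:192994175-193007219, - strand) has 4.

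In N_0 cells the JUN genes were the more abundant class. Scaled to exon length and library size (RPKM), the 3 JUN genes summed to 393 ± 112 (SD, n = 3) in N_0 and 316 ± 53.5 in T_0, against 52.5 ± 22.3 and 85.8 ± 6.40 for the 4 FOS genes. *Junb*, often an opponent of *Jun* in activity, was the most abundant at 258 ± 116 RPKM in N_0, followed by *Jund*, the JUN gene known for steady expression, at 86.4 ± 11 and *Jun* at 49.2 ± 5.63. *Fos* stood at 41.2 ± 14.3 RPKM and *Batf* at 13.2 ± 1.95, while *Fosb*, at 9.08 ± 8.20, did not differ from *Batf* beyond its spread. *Fosl2* was at 2.14 ± 0.170 RPKM, *Atf3* at 0.776 ± 0.661 and *Batf3* at 0.821 ± 0.501. *Fosl1* had at most 3 reads in any N_0 or T_0 library.

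**Figure D1:**
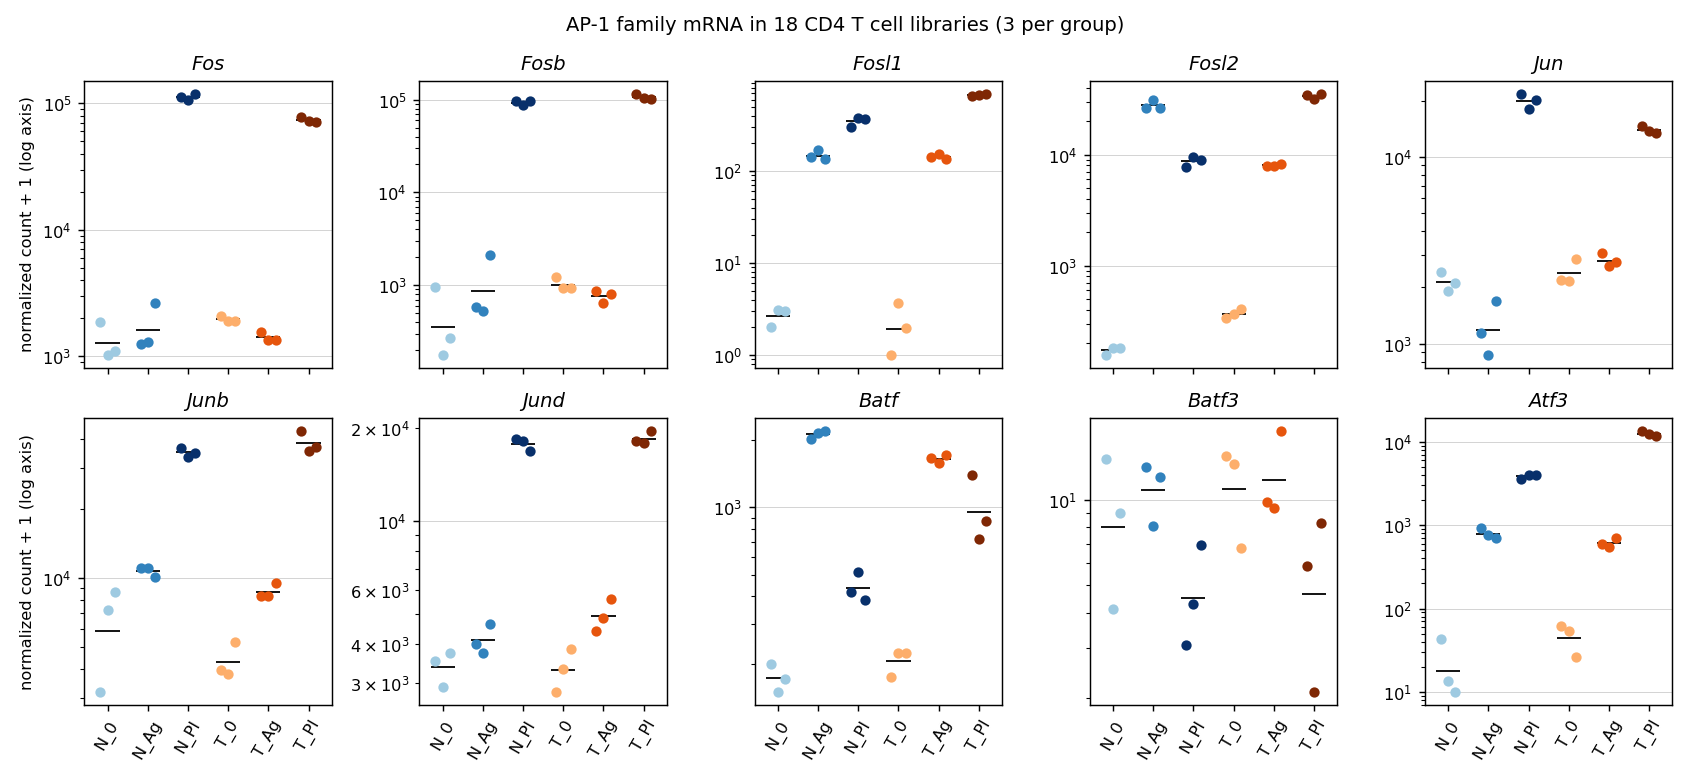
Normalized count plus 1 (log axis, a scale of its own in each panel) of the 10 genes in each of the 18 libraries. Points are single libraries in order of replicate number, and bars the geometric mean of the 3 values. *Fos* and *Fosb* are raised in N_PI and T_PI, *Fosl2* in all 4 stimulated groups, and *Batf* most in N_Ag and T_Ag.

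The plot of levels by library shows that the members differed in how far each stimulus raised them. To find how each member responded to Ag in the animal, N_Ag was compared with N_0 and T_Ag with T_0, and all values that follow are normalized counts (raw counts brought by TMM scaling to a library of average size) unless named otherwise. In naive cells 6 of the 10 genes rose with Ag (32.1% of all 17240 genes tested did) and 1 fell (33.4% of all genes), at an adjusted p under 0.05 by edgeR's quasi-likelihood test. In tolerized cells 6 of the 10 rose (29.9% of all genes) and none fell (29.8%), also with DESeq2. At an adjusted p under 0.05, at least 2-fold and above 50 normalized counts, 4 rose in naive cells (14.2% of all genes) and 5 in tolerized cells (12.1%), and none fell (16.2% and 11.3%). The libraries of the groups did not overlap for 7 of the 10 genes in naive cells (68.1% of all genes) and for 8 in tolerized cells (64.5%). None of the members that did not pass in tolerized cells had an unadjusted p under 0.05. The members' median log2 fold change was 0.98 in naive and 0.79 in tolerized cells, against 0.00 and -0.05 over all genes tested. In a bulk library, a change in the share of cells that express a gene and a change in RNA per cell cannot be told apart.

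*Fosl2*, which encodes the FOS-related protein FRA-2, had the largest fitted rise of the family with Ag in naive cells. It was at 156, 180 and 179 in N_0 and at 26179, 31276 and 26615 in N_Ag, a log2 fold change of 7.35 ± 0.12 (SE; adjusted p = 1.52e-23, edgeR), or 164-fold. In tolerized cells it was at 336, 364 and 406 in T_0 and at 7886, 7932 and 8322 in T_Ag, a log2 fold change of 4.45 ± 0.10 (adjusted p = 1.53e-20, edgeR), or 21.8-fold. Its libraries did not overlap between the groups in either cell state.

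*Fosl1*, which encodes FRA-1, was close to absent at rest and present after Ag. It was at 141, 167 and 133 in N_Ag and at 142, 153 and 135 in T_Ag. With 5 reads in the 3 N_0 libraries together, the ratio of N_Ag to N_0 was 87.4, with an exact 95% interval from 37.1 to 271, and with 4 reads in T_0 the ratio of T_Ag to T_0 was 118, from 45.7 to 435. Both intervals cover counting error alone, and the fitted fold change of this gene depends on the prior count. Of the 4 reads in T_0, 3 were in replicate 2, without which the fitted log2 fold change moved from 6.75 to 7.91 with Ag and from 8.98 to 10.15 with PI. The edgeR test passed in both cell states (adjusted p = 5.07e-16 and 4.66e-16).

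*Fos* and *Fosb*, the classical immediate-early members, did not pass with Ag in either state when all groups were fitted together. Ag was sampled in these libraries at 2 h after injection only, so a rise that had passed by then would not be seen. *Fos* was at 1853, 1022 and 1093 in N_0 and at 1251, 1283 and 2653 in N_Ag, overlapping groups with a log2 difference of 0.39 ± 0.27 (adjusted p = 0.225, edgeR). In T_0 it was at 2096, 1901 and 1893, and in T_Ag at 1548, 1353 and 1343. All 3 T_Ag values lay below all 3 T_0 values, with a log2 difference of -0.47 ± 0.27 (adjusted p = 0.149, edgeR). *Fosb* was at 947, 176 and 272 in N_0, at 575, 531 and 2111 in N_Ag, at 1215, 927 and 933 in T_0 and at 856, 645 and 803 in T_Ag. The high values among the naive libraries are those of N_0 replicate 1 and N_Ag replicate 3. These were chosen after seeing the data, so adjusted p-values without them rest on an understated spread. Leaving out both lowered the SE of *Fos* in tolerized cells from 0.27 to 0.08, although no tolerized library was removed. Without N_0 replicate 1 alone, *Fosb* (log2 2.21, adjusted p = 0.00348) and *Fos* (0.66, adjusted p = 0.0364) passed as higher in N_Ag, and without N_Ag replicate 2 *Fosb* did (1.53, adjusted p = 0.0428). With N_0 replicate 1 and N_Ag replicate 3 both left out, *Fosb* was higher in N_Ag by a log2 fold change of 1.30 (adjusted p = 1.11e-05, edgeR) and *Fos* by 0.26 (adjusted p = 0.0205), while in tolerized cells both were lower with Ag, *Fosb* by a log2 fold change of -0.41 (adjusted p = 0.0171) and *Fos* by -0.46 (adjusted p = 1.13e-05). Both were also lower in the fit of T_Ag and T_0 alone (*Fos* -0.51, adjusted p = 5.02e-05, and *Fosb* -0.46, adjusted p = 0.019), and *Fos* with scaling by library totals (-0.81, adjusted p = 0.0177).

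Among the JUN genes, *Junb* and *Jund* rose modestly and *Jun* differed between the cell states. *Junb* went from 3176, 7210 and 8696 in N_0 to 11059, 10990 and 10065 in N_Ag, where the lowest N_0 value is again replicate 1, and from 3949, 3794 and 5272 in T_0 to 8301, 8333 and 9465 in T_Ag. Its log2 fold change was 0.75 ± 0.26 in naive (adjusted p = 0.0238, edgeR) and 1.0 ± 0.27 in tolerized cells (adjusted p = 0.00516). *Jund* was at 3522, 2915 and 3752 in N_0 and at 3999, 3756 and 4638 in N_Ag, a log2 fold change of 0.28 ± 0.11 (adjusted p = 0.035, edgeR). In tolerized cells it went from 2802, 3337 and 3868 to 4399, 4858 and 5580, by 0.57 ± 0.11 (adjusted p = 0.000186). The naive results for *Junb* and *Jund* were lost in several alternatives, among them the fit of N_Ag and N_0 alone (adjusted p = 0.21 and 0.0855) and that with marker scores (adjusted p = 0.0614 and 0.227). *Junb* also lost its call without N_Ag replicate 1 or 2 (adjusted p = 0.0532 and 0.0542) and *Jund* without N_0 replicate 1 or 2 or N_Ag replicate 1 or 3 (adjusted p from 0.0594 to 0.359), and with scaling by library totals *Jund* turned to -0.12.

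*Jun*, the prototype of its class and the partner that lends FOS proteins stable DNA binding, was the only member that fell with Ag. It was at 2404, 1918 and 2107 in N_0 and at 1134, 868 and 1697 in N_Ag, a log2 fold change of -0.80 ± 0.19 (adjusted p = 0.00199, edgeR). In T_0 it was at 2183, 2170 and 2849 and in T_Ag at 3041, 2588 and 2737, which overlapped (log2 difference 0.22 ± 0.19, adjusted p = 0.343).

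*Batf*, needed for several helper T cell programs, rose in both states. It was at 199, 148 and 171 in N_0 and at 2023, 2153 and 2185 in N_Ag, a log2 fold change of 3.62 ± 0.22 (adjusted p = 1.14e-09, edgeR). In T_0 it was at 174, 223 and 223 and in T_Ag at 1655, 1579 and 1716, a log2 fold change of 3.00 ± 0.21 (adjusted p = 9.72e-09). *Batf3*, best known from dendritic cells, stayed between 1.10 and 16.4 in all 18 libraries, with at most 16 reads, and did not pass in any of the 9 comparisons. The dendritic cell markers summed to between 379 and 1139 in the libraries.

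*Atf3*, a stress-inducible bZIP gene, rose from 41.6, 12.5 and 8.92 in N_0 to 926, 761 and 699 in N_Ag, a log2 fold change of 5.22 ± 0.33 (adjusted p = 3.56e-09, edgeR), which was 6.15 without N_0 replicate 1, the highest N_0 library. In T_0 it was at 60.1, 53.0 and 24.9 and in T_Ag at 597, 546 and 710, a log2 fold change of 3.73 ± 0.29 (adjusted p = 4.55e-08). Of 9 heat shock genes, 4 rose (32.1% of all genes) and 3 fell (33.4%) with Ag in naive cells and 4 rose (29.9%) in tolerized cells. Among those that fell, *Hspa1a* and *Hspa1b* were at 131 ± 224 and 284 ± 475 (SD, n = 3) in N_0, a spread larger than the mean. The sum of the 9 heat shock genes was at 37853 to 48629 in N_Ag against 10030 to 18139 in N_0, where replicate 1 was the highest. In tolerized cells it was at 38933 to 52034 in T_Ag against 9186 to 12324 in T_0. Their part in the level of *Atf3* was not tested.

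PI raised nearly the whole family. In naive cells 9 of the 10 genes rose (28.6% of all genes tested did), and 9 of the 10 in tolerized cells (32% of all genes), each also at least 2-fold and above 50 normalized counts (10.1% and 13.3%). For 9 of the 10 genes in each state the libraries of the groups did not overlap (66.4% and 72.5% of all genes). None fell by edgeR or DESeq2, against 32.7% and 36.3% of all genes, or 10.3% and 13.7% by the 2-fold rule, and *Batf3* was the one that did not pass (unadjusted p = 0.107 and 0.0477), with log2 differences of -1.02 ± 0.61 (adjusted p = 0.153, edgeR) and -1.14 ± 0.55 (adjusted p = 0.0679). The members' median log2 fold change was 4.45 in naive and 4.2 in tolerized cells, against -0.06 and -0.10 over all genes tested. Between PI and the resting groups the mice also differed in sex, fully in naive cells. With the sex of the library as a covariate the same 9 genes rose in each cell state, and *Batf3* then passed as lower in both, by a log2 fold change of -2.04 (adjusted p = 0.0311) in naive and -1.40 (adjusted p = 0.0236) in tolerized cells. The sex effect in that fit comes from T_0 and T_Ag, the only groups of mixed sex. The adjusted naive values thus carry over an effect that could not be measured in naive cells.

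*Fos* and *Fosb*, which had not passed with Ag, became the most abundant members. *Fos* reached 113307, 106893 and 118625 in N_PI and 78727, 73182 and 71373 in T_PI, log2 fold changes of 6.42 ± 0.33 (adjusted p = 9.51e-10, edgeR) and 5.24 ± 0.31 (adjusted p = 3.08e-09). *Fosb* reached 95868, 86554 and 96737 in N_PI and 114653, 102802 and 100555 in T_PI, log2 fold changes of 7.64 ± 0.72 (adjusted p = 7.54e-07) and 6.69 ± 0.69 (adjusted p = 1.36e-06), the former 8.65 without N_0 replicate 1. Every PI library was more than an order of magnitude above every other library for both genes.

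*Fosl2* reached 7736, 9606 and 8943 in N_PI, below its N_Ag values, and 34755, 31919 and 35214 in T_PI, above its T_Ag values. The log2 fold changes over rest were 5.68 ± 0.11 (adjusted p = 1.09e-21, edgeR) in naive and 6.53 ± 0.11 (adjusted p = 9.84e-23) in tolerized cells. The order of its 6 groups was N_0, T_0, T_Ag, N_PI, N_Ag and T_PI, in which the values of neighbours overlapped for T_Ag and N_PI alone. *Fosl1* reached 299.6, 377 and 368 in N_PI and 658, 676 and 687 in T_PI. Its ratio to rest was 208 in naive cells, with an exact 95% interval from 88.7 to 641, and 557 in tolerized cells, from 217 to 2046.

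The JUN genes rose less than the FOS genes. *Jun* was at 21723, 17985 and 20147 in N_PI and at 14606, 13816 and 13481 in T_PI, log2 fold changes of 3.22 ± 0.20 (adjusted p = 3.19e-09, edgeR) and 2.54 ± 0.19 (adjusted p = 2.39e-08). *Junb* was at 36731, 33652 and 35101 in N_PI and at 43422, 35650 and 36928 in T_PI, and rose by log2 2.47 ± 0.28 (adjusted p = 3.65e-06) and 3.16 ± 0.29 (adjusted p = 3.05e-07). *Jund* was at 18317, 18149 and 16875 in N_PI and at 18050, 17844 and 19464 in T_PI, and rose by log2 2.39 ± 0.12 (adjusted p = 4.4e-13) and 2.47 ± 0.12 (adjusted p = 1.45e-13). For *Junb* and *Jund* the N_PI and T_PI values overlapped.

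*Batf* differed from the other well-expressed members in that its values with PI were below those with Ag in both states. It was at 416, 512 and 384 in N_PI and at 1390, 722 and 870 in T_PI, below every N_Ag and T_Ag value in its own cell state. Its rise over rest was log2 1.34 ± 0.22 (adjusted p = 9.7e-05, edgeR) in naive and 2.27 ± 0.21 (adjusted p = 1.83e-07) in tolerized cells, and the naive one was lost with the marker scores as covariates (log2 1.11, adjusted p = 0.056). *Atf3* reached 3567, 4039 and 4032 in N_PI and 13388, 12378 and 11641 in T_PI, log2 fold changes of 7.51 ± 0.32 (adjusted p = 9.02e-11) and 8.06 ± 0.30 (adjusted p = 1.04e-11), the former 8.44 without N_0 replicate 1.

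**Figure D2:**
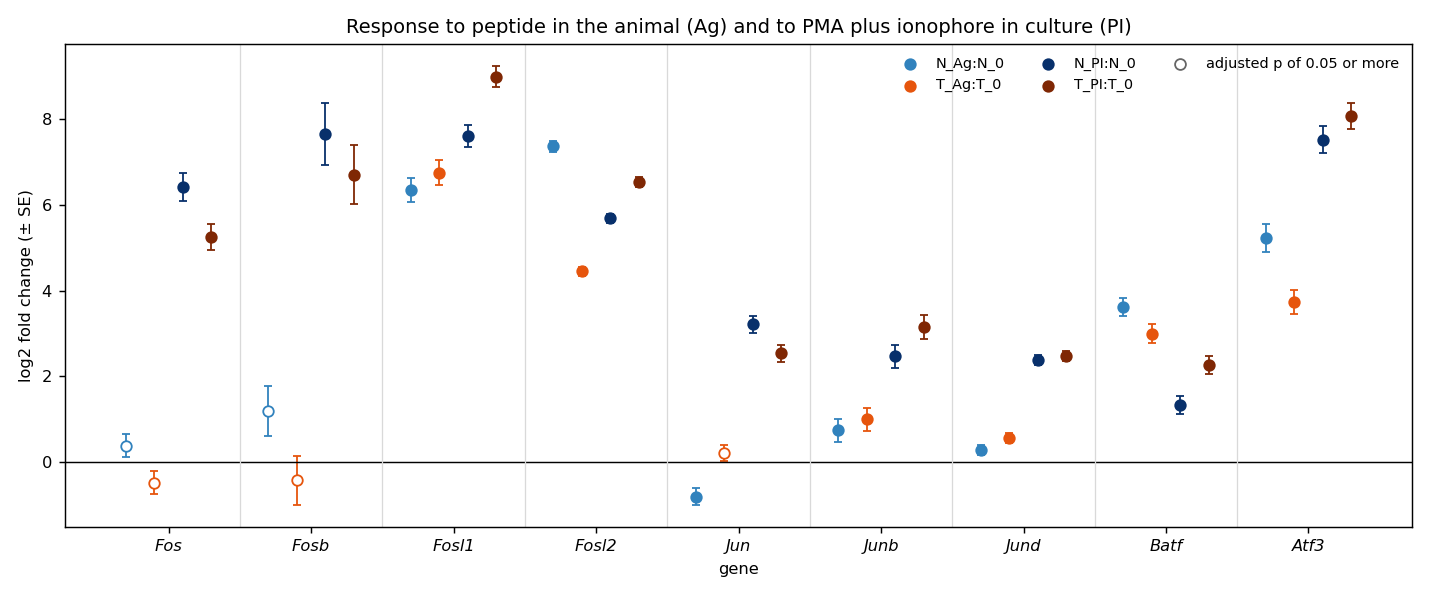
Log2 fold change over the resting group of the same cell state, with its SE, for 9 of the genes (*Batf3* is left out for its low counts). Filled points passed an adjusted p of 0.05, and *Fosl1* is shown as fitted although at most 3 reads were counted per resting library. *Fos* and *Fosb* lie between -0.47 and 1.21 with Ag, none of these points filled, and between 5.24 and 7.64 with PI, and *Fosl2* with Ag lies at 7.35 in naive and 4.45 in tolerized cells.

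Because the proteins of the members compete for partners, the make-up of the FOS and JUN classes was described per exon length, which allows genes to be compared. These are shares of mRNA, and protein was not measured in these libraries. In western blots of the study, c-Fos, FosB, c-Jun and JunB protein was lower in T_Ag than in N_Ag, while JunD was not reduced. The mRNA shares thus do not give the make-up of AP-1 protein. *Fos* made up 80.05% ± 5.60 (SD, n = 3) of the summed FOS RPKM in N_0 and 71.3% ± 1.14 in T_0. With Ag the FOS pool was mostly *Fosl2*, 81.5% ± 8.29 in N_Ag and 60.7% ± 2.24 in T_Ag, where *Fos* made up 12.3% ± 4.85 and 26.5% ± 1.73. With PI it was mostly *Fos* and *Fosb*, at 64.4% ± 0.347 and 33.3% ± 0.620 in N_PI and at 47.9% ± 0.403 and 42.7% ± 0.650 in T_PI. *Fosl2* then made up 2.02% ± 0.291 in N_PI and 8.79% ± 0.582 in T_PI, and *Fosl1* no more than 4.08% in any library.

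In the JUN class, *Junb* held the largest share of the JUN RPKM in every library, between 47.1% in N_0 replicate 1 and 79.4% in an N_Ag library. *Jun* was at its smallest in N_Ag, with 4.99% ± 1.72, against 11.9% ± 1.45 in T_Ag. The summed FOS level was 431 ± 42.0 RPKM in N_Ag and 166 ± 4.77 in T_Ag, and 5456 ± 281 in N_PI and 4839 ± 272 in T_PI. The ratio of summed FOS to summed JUN RPKM was 0.154 ± 0.114 in N_0, 0.762 ± 0.0831 in N_Ag and 2.34 ± 0.115 in N_PI, and 0.278 ± 0.0568 in T_0, 0.307 ± 0.0215 in T_Ag and 2.06 ± 0.0619 in T_PI. In tolerized cells the ratio with Ag thus lay within the spread of that at rest. *Batf* made up at least 90.7% of the summed RPKM of *Batf* and *Batf3* in every library. Its RPKM relative to that of *Jund*, one of its possible partners, lay between 0.137 and 0.170 in N_0, between 1.42 and 1.73 in N_Ag and between 0.927 and 1.13 in T_Ag.

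**Figure D3:**
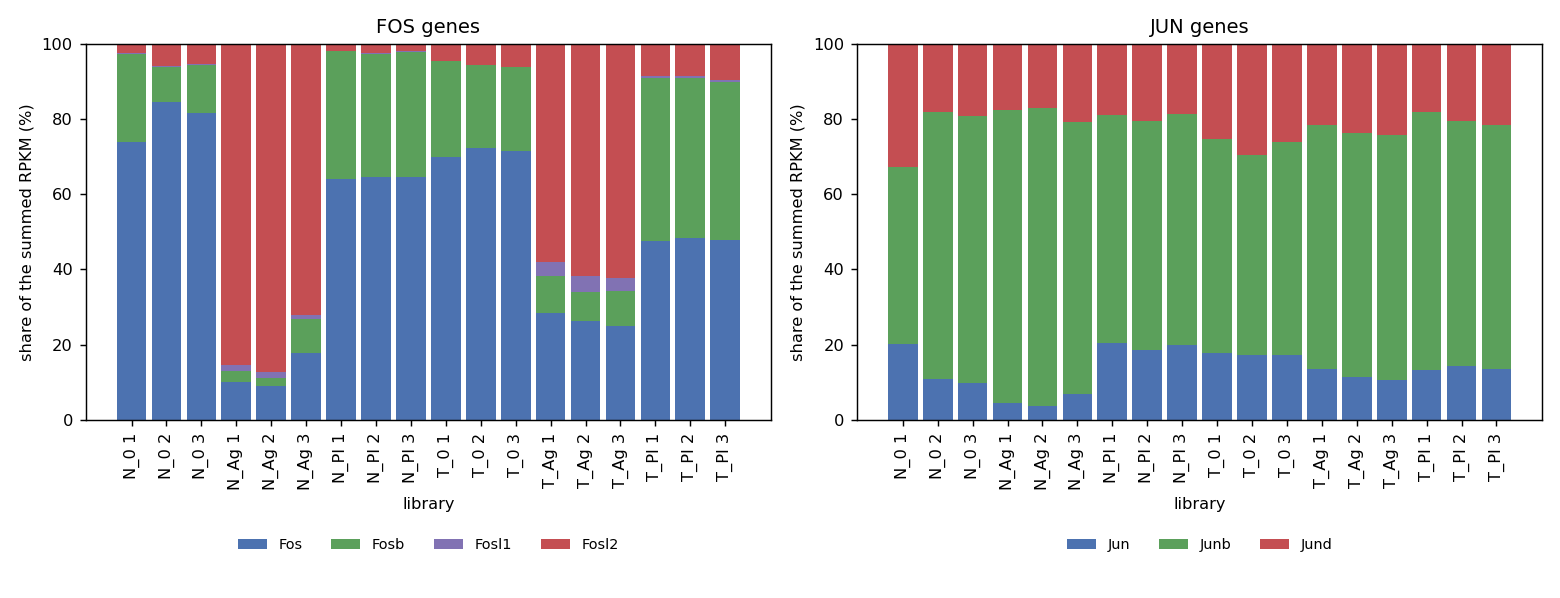
Share (%) of each gene in the summed RPKM of the 4 FOS genes (left) and the 3 JUN genes (right), with 1 stacked bar for each of the 18 libraries. *Fosl2* fills 71.99% to 87.2% of the FOS bar in N_Ag and 58.1% to 62.2% in T_Ag, and under 10% in the other 12 libraries.

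The tolerized and naive cells were then compared in the same condition. At rest *Fosl2* was the only one of the 10 genes that differed by edgeR, higher in T_0 (8.42% of all genes were), and none was lower by edgeR, by DESeq2 or at an unadjusted p under 0.05 (12% of all genes were). With DESeq2 *Atf3* was higher as well (log2 1.14, adjusted p = 0.0226). The groups differed in sex, as 2 of the 3 T_0 libraries and 0 of N_0 had more Y-linked than *Xist* reads. With sex as a covariate *Atf3* was at log2 0.78 (adjusted p = 0.358, edgeR). The log2 fold change of *Fosl2* was 1.11 ± 0.11 (adjusted p = 2.24e-07, edgeR), 336 to 406 in T_0 against 156 to 180 in N_0, and *Fosl2* also met the 2-fold rule (2.61% of all genes did in that direction and 0.644% in the other). *Fosl2* and *Fos* were the 2 of 10 genes whose T_0 and N_0 libraries did not overlap (35% of all genes). The *Fosl2* difference lay between 1.02 and 1.24 in all alternatives, and was 1.24 with the marker scores as covariates (adjusted p = 0.00969). Without N_0 replicate 1, 4 genes were higher in T_0, with *Fos* at log2 0.89 (adjusted p = 0.0257), *Fosb* at 2.18 (adjusted p = 0.0144) and *Atf3* at 2.1 (adjusted p = 0.00296), and *Junb* was lower at -0.88 (adjusted p = 2.9e-05). *Atf3* also passed without T_0 replicate 3 (1.41, adjusted p = 0.0309). With all libraries included, *Fos* was at 0.57 ± 0.27 (adjusted p = 0.162, edgeR) and *Fosb* at 1.14 ± 0.58 (adjusted p = 0.201). *Atf3* was then at 1.13 ± 0.45 (adjusted p = 0.102) and *Junb* at -0.55 ± 0.27 (adjusted p = 0.172). Of the neutrophil markers 9 of 10 were higher in T_0 (median log2 4.33), and of the macrophage markers 1 of 9 (median -0.09, against -0.08 over all genes). Their part in these differences was not tested beyond the fit with marker scores.

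After Ag, *Fosl2* was lower in T_Ag than in N_Ag and *Jun* higher. These were the only members past the test, 1 of 10 lower (18.5% of all genes tested were) and 1 of 10 higher (20.9%), and both met the 2-fold rule (2.05% and 3.61%). *Fosl2* was lower by 3.48-fold (log2 -1.80 ± 0.09, adjusted p = 3.93e-13, edgeR) and *Jun* higher by 2.26-fold (log2 1.18 ± 0.19, adjusted p = 0.000237), and neither overlapped. Sex differed here too, as 1 of the 3 T_Ag libraries and 0 of N_Ag had more Y-linked than *Xist* reads. With sex as a covariate *Jun* was at log2 1.25 (adjusted p = 0.00033, edgeR). *Fosl1* (log2 -0.04 ± 0.14, adjusted p = 0.857) and *Jund* (0.26 ± 0.11, adjusted p = 0.077) had overlapping libraries. *Batf* (-0.36 ± 0.19, adjusted p = 0.143) and *Junb* (-0.30 ± 0.26, adjusted p = 0.409) did not pass although every T_Ag value was below every N_Ag value. In all, the libraries did not overlap for 4 of the 10 genes, against 47.7% of all genes. In the fit of T_Ag and N_Ag alone *Batf*, *Junb* and *Atf3* also passed as lower, with adjusted p of 0.00111, 0.00704 and 0.0476, and with DESeq2 *Batf* did (adjusted p = 0.0483). *Jund* passed as higher without N_Ag replicate 3 or T_Ag replicate 1 (adjusted p = 0.0368 and 0.0442). Of the macrophage markers 7 of 9 were lower and 1 higher in T_Ag (median log2 -1.08), and of the neutrophil markers 10 of 10 were higher (median 3.46). *Fosb*, at -0.48 ± 0.57 (adjusted p = 0.546), turned to 0.49 (adjusted p = 0.025) with N_0 replicate 1 and N_Ag replicate 3, picked after seeing the data, left out. *Junb* then passed as lower (log2 -0.33, adjusted p = 0.0325, edgeR).

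After PI, 4 of the 10 genes were higher in T_PI than in N_PI (18.2% of all genes tested were) and 1 was lower (19.7%). *Fosl2* was higher by 3.88-fold (log2 1.95 ± 0.09, adjusted p = 2.59e-13, edgeR), *Atf3* by 3.21-fold (1.68 ± 0.20, adjusted p = 1.93e-05), *Batf* by 2.28-fold (1.19 ± 0.20, adjusted p = 0.00024) and *Fosl1* by 1.93-fold (0.95 ± 0.12, adjusted p = 1.1e-06). Of these 3 met the 2-fold rule (3.38% of all genes), while no member was lower by that rule (2.22%). The libraries did not overlap for 7 of the 10 genes (50.5% of all genes). *Jun* was lower by log2 -0.51 ± 0.18 (adjusted p = 0.0396), a result lost when any library but N_PI replicate 2 was left out in turn, with adjusted p up to 0.12, and with marker scores (adjusted p = 0.247). *Fos* had lower values in all T_PI than in all N_PI libraries (-0.60 ± 0.26, adjusted p = 0.0885), and passed in the fit of these groups alone (adjusted p = 8.63e-07), as did *Fosb* as higher (log2 0.21, adjusted p = 0.0225). With N_0 replicate 1 and N_Ag replicate 3 left out *Fos* also passed (-0.59, adjusted p = 8.96e-07), although neither library belongs to these groups. Of the neutrophil markers 6 of 10 were higher in T_PI, and their part was not tested beyond the fit with marker scores. All libraries of these groups had more reads of Y-linked genes than of *Xist*. Direction and size of the *Fosl2* difference thus changed with the condition, higher in tolerized cells at rest and with PI and lower with Ag.

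**Figure D4:**
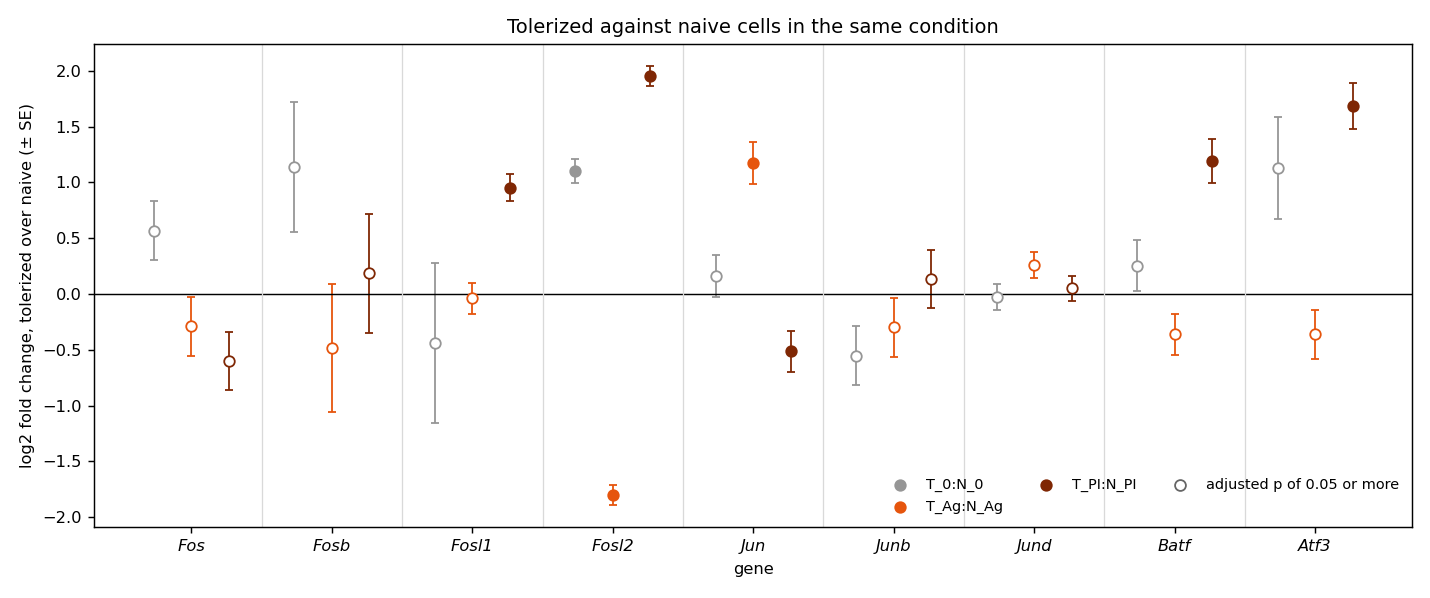
Log2 fold change of tolerized over naive cells at rest, after Ag and after PI, with its SE, for 9 of the genes. Filled points passed an adjusted p of 0.05. *Fosl2* lies at 1.11 at rest, -1.80 after Ag and 1.95 after PI, and *Jun* at 1.18 after Ag and -0.51 after PI.

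Whether the response itself differed between the cell states was tested as an interaction, the log2 fold change in tolerized cells minus that in naive cells. For Ag, *Fosl2* had the smaller response in tolerized cells (-2.91 ± 0.14, adjusted p = 1.07e-12, edgeR), 1 of 10 genes in this direction (7.09% of all genes tested), and *Jun* the higher one (1.01 ± 0.27, adjusted p = 0.0144), 1 of 10 (14.6%). The *Fosl2* difference lay between -2.97 and -2.81 in all alternatives. *Atf3* was at -1.49 ± 0.50 (adjusted p = 0.0511), and *Fosb* and *Fos* at -1.62 ± 0.81 (adjusted p = 0.196) and -0.86 ± 0.38 (adjusted p = 0.137). All 3 passed as lower without N_0 replicate 1, at -2.45 (adjusted p = 0.00126), -2.65 (adjusted p = 0.0168) and -1.16 (adjusted p = 0.0264), and *Junb* then passed as higher at 0.59 (adjusted p = 0.0114). *Atf3* also passed without T_0 replicate 3 (adjusted p = 0.0145) or T_Ag replicate 3 (adjusted p = 0.046) and with DESeq2 (adjusted p = 0.0144). The *Jun* difference was lost in the fit of these 4 groups alone (adjusted p = 0.0546) and with marker scores as covariates (adjusted p = 0.056).

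For PI, *Fosl2* had the larger response in tolerized cells (0.85 ± 0.14, adjusted p = 8.28e-05, edgeR), as had *Batf* (0.94 ± 0.30, adjusted p = 0.0428), 2 of 10 genes (12.7% of all genes tested), and *Fos* the smaller one (-1.17 ± 0.37, adjusted p = 0.0426), 1 of 10 (7.52%). The result for *Fosl2* held in every alternative. That for *Fos* was lost when any library but N_0 replicate 1 was left out in turn, with adjusted p up to 0.101, and that for *Batf* without N_0 replicate 1 or 3, N_PI replicate 1 or 3 or T_0 replicate 1 or 2, with adjusted p up to 0.0952. Without N_0 replicate 1, *Junb* passed as having the larger response in tolerized cells (1.03, adjusted p = 9.93e-05). *Fosb* then moved from -0.95 (adjusted p = 0.464) to -1.99 (adjusted p = 0.0587). With N_Ag replicate 3 left out as well, *Fosb* (-2.00, adjusted p = 6.77e-06) and *Jun* (-0.76, adjusted p = 0.00159) passed as having the smaller response. *Batf* did not pass in that fit (adjusted p = 0.122), and *Junb* still did (1.02, adjusted p = 8.56e-05). The interactions share the resting groups with the comparisons above, and sex was confounded with PI in naive cells. With sex as a covariate, *Fos* had an adjusted p of 0.092 and *Batf* of 0.102, and with marker scores 0.0741 and 0.185.

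Other gene lists were counted in the same way, where over all genes tested 32.1% rose and 33.4% fell with Ag in naive cells, 29.9% and 29.8% in tolerized cells, and with PI 28.6% and 32.7% in naive and 32% and 36.3% in tolerized cells. Of 24 other bZIP genes, 17 rose and 3 fell with Ag in naive cells, and 18 rose and 2 fell in tolerized cells (median log2 fold changes 1.18 and 1.20, against 0.00 and -0.05 over all genes tested). *Batf2*, a paralog of *Batf*, went from 0.331 ± 0.573 (SD, n = 3) in N_0 to 40.6 ± 20.2 in N_Ag and from 0.589 ± 0.510 in T_0 to 33.1 ± 8.01 in T_Ag. *Crem*, a cAMP-responsive bZIP gene, rose in N_Ag by log2 3.08 ± 0.16 (adjusted p = 1.44e-11, edgeR) and was lower in T_Ag than in N_Ag by -2.31 ± 0.15 (adjusted p = 7.22e-09). *Nfil3*, a repressor of the bZIP class, was higher in T_Ag than N_Ag by 2.67 ± 0.22 (adjusted p = 3.74e-07), and *Maf*, a regulator of IL-10, by 4.07 ± 0.34 (adjusted p = 1.1e-06). *Bach2*, which competes for AP-1 sites, was at 4296 ± 445 in N_0, 5277 ± 859 in N_Ag, 2253 ± 106 in T_0 and 8336 ± 936 in T_Ag, and its response to Ag was larger in tolerized cells (interaction 1.59 ± 0.15, adjusted p = 1.66e-07). With PI, 17 of the 24 rose and 4 fell in naive cells and 18 rose and 4 fell in tolerized cells, and *Maff*, a small MAF gene, rose most by log2 fold change in both (6.02 ± 0.21, adjusted p = 1.13e-12, and 6.75 ± 0.21, adjusted p = 2.4e-13).

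Genes for 9 known partners of AP-1 in composite sites were followed beside the members. The BATF partner *Irf4* went from 265 ± 59.5 in N_0 to 46762 ± 695 in N_Ag and from 478 ± 29.3 in T_0 to 35844 ± 2531 in T_Ag. *Irf8* went from 361 ± 185 to 33901 ± 1599 in naive cells and from 789 ± 104 to 24134 ± 3792 in tolerized cells. The response to Ag of both was smaller in tolerized cells (interactions -1.23 ± 0.18, adjusted p = 4.4e-05, and -1.62 ± 0.36, adjusted p = 0.00607, edgeR), while that of *Batf* did not pass (-0.62 ± 0.29, adjusted p = 0.168), although it did with DESeq2 (-0.66, adjusted p = 0.0353). With PI, *Irf4* rose by a log2 fold change of 6.95 ± 0.16 (adjusted p = 1.1e-18) in naive and 6.93 ± 0.16 (adjusted p = 4.11e-19) in tolerized cells, where *Batf* had risen less than with Ag. *Nfatc2*, which encodes an NFAT protein found in resting cells, fell with Ag by log2 -2.56 ± 0.11 (adjusted p = 8.47e-16) in naive and -1.63 ± 0.10 (adjusted p = 2.02e-12) in tolerized cells. Of the 9 genes, 6 rose and 3 fell in naive and 4 rose and 4 fell in tolerized cells with Ag.

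Of 20 genes of the Ras, MAP kinase and SRF pathways upstream of AP-1, 9 rose and 9 fell with Ag in naive cells and 8 rose and 8 fell in tolerized cells, with medians of -0.02 and 0.01, beside 32.1% and 33.4% of all genes in naive and 29.9% and 29.8% in tolerized cells. *Mapk3*, which encodes ERK1, fell by log2 -3.30 ± 0.17 (adjusted p = 1.56e-14, edgeR) in naive and -1.98 ± 0.15 (adjusted p = 3.31e-11) in tolerized cells. *Elk3*, a ternary complex factor at CArG boxes, fell by -2.47 ± 0.11 (adjusted p = 5.93e-16) in naive cells, and its response differed between the states by 2.01 ± 0.14 (adjusted p = 6.81e-10). *Mapk8*, which encodes JNK1, rose with PI by 1.36 ± 0.08 (adjusted p = 1.95e-13) in naive and 1.58 ± 0.08 (adjusted p = 7.35e-15) in tolerized cells. *Rasgrp1*, the Ras activator that binds the same second messenger as PMA mimics, was lower in T_0 than N_0 by -0.57 ± 0.08 (adjusted p = 3.29e-05), and its response to PI was larger in tolerized cells by 1.27 ± 0.12 (adjusted p = 5.33e-08).

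Other immediate-early genes were followed for comparison with *Fos*. All 16 rose with PI in both cell states (medians of 4.40 and 4.33 on the log2 scale). With Ag 14 rose and none fell in naive cells, and 13 rose and 1 fell in tolerized cells (medians of 2.1 and 2.33). *Egr1*, induced like *Fos* through SRF and ELK factors, was at 625 ± 109 in N_0, 2615 ± 237 in N_Ag, 469 ± 46.4 in T_0 and 4453 ± 713 in T_Ag, and its response to Ag was larger in tolerized cells (1.18 ± 0.17, adjusted p = 2.56e-05, edgeR). *Nr4a2*, an orphan nuclear receptor gene, had the response to Ag that differed most in this list (-3.91 ± 0.14, adjusted p = 5.15e-15), in the direction of *Fosl2*. By the same interaction test, 9 of the 16 genes had the smaller response to Ag in tolerized cells (7.09% of all genes tested). The larger response was in tolerized cells for 2 of the 16 (14.6%).

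The genes most like each member over the 18 libraries were found among 10352 genes with a mean above 50, by Pearson's r of log2(normalized count + 1). These are descriptions over libraries that share 6 group means. *Fosl2* was closest to *Gfi1* and *Furin* (r = 0.996 each) and *Frmd4b* (0.994). *Fos* was closest to *Dusp1* (0.992), *4921524J17Rik* (0.99) and *Zfp36* (0.986), and *Fosb* to *Dusp1* (0.983), *Sesn2* (0.982) and *Luzp1* (0.98). *Junb* was closest to the bZIP gene *Maff* (0.984), *Sertad1* (0.982) and *Ier2* (0.98), *Jund* to *Zfand5* (0.991), *Gnas* (0.989) and *Osgin2* (0.988), and *Batf* to *Eif1a* (0.993), *Rcl1* (0.989) and *Abcc1* (0.987).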

How the data were processed

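RNA-seq (rRNA-depleted) libraries of CD4 T cells were made in 6 groups of 3. The paired-end reads were aligned by the authors to mm9 with TopHat2 2.1.1 and counted per Ensembl gene with HTSeq 0.9.1, per the labels. The deposited values are these raw counts, 1 column per library and 37991 genes, with no normalization. The strand setting of the counting is not given in the sources used here, although *Gm11175*, which lies wholly inside *Jund* on the other strand, was credited with reads. Symbols and positions came from an annotation of the same build and covered 37205 genes.

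The 10 genes and all gene lists were chosen with earlier results of these data known. The counts were analyzed with R 4.3.3 and edgeR 4.0.16. Libraries were scaled by TMM, the 17240 genes averaging 3 or more normalized counts in any group were tested (*Fosl1* entered through its stimulated groups), and 1 model with 6 group means was fitted to all 18 libraries by edgeR's quasi-likelihood F test in its robust form. Adjusted p-values are Benjamini-Hochberg values over all tested genes, and a gene passed at under 0.05. Named genes of the other lists are at most 4 per list and comparison, those with the largest log2 fold change past the test. Replicates are described as biological, and total counts ranged from 10758571 to 24119489, so *Batf3* and resting *Fosl1* are imprecise. Alternatives used DESeq2 1.42.0, its size factors, library totals, no filter, the compared groups alone, the replicate block, marker scores, sex, the study's combination of tests, and each library left out. Scripts were tested on simulated data. Intervals of ratios are exact and cover counting error only.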

Additional observations from a re-analysis of the deposited data

Results flagged for a closer look

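The response of 4 members differed between tolerized and naive cells by an interaction test (edgeR's quasi-likelihood test, Benjamini-Hochberg adjustment over all tested genes, 3 libraries in each of the 4 groups). The difference is the log2 fold change in tolerized cells minus that in naive cells. For Ag it was -2.91 for *Fosl2* (adjusted p = 1.07e-12) and 1.01 for *Jun* (adjusted p = 0.0144). For PI it was -1.17 for *Fos* (adjusted p = 0.0426), 0.85 for *Fosl2* (adjusted p = 8.28e-05) and 0.94 for *Batf* (adjusted p = 0.0428). *Fosl2* thus had the lower response to Ag and the higher response to PI in tolerized cells. Of 21 alternatives, both *Fosl2* results passed in all 21 and that of *Jun* for Ag in 19. The PI results of *Fos* and *Batf* passed in 7 and 8, and not with sex as a covariate (adjusted p = 0.092 and 0.102, edgeR).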

How the results depend on the processing

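Scaling by library totals moved the median log2 fold change of all genes by -0.80 to 0.18, and DESeq2's size factors by at most 0.05. The number of members and comparisons past the 2-fold rule, 33, stayed between 32 and 36, and of the members named, *Fosl2* kept its direction and its side of the threshold in every comparison and alternative. Depth limits *Batf3* and resting *Fosl1* most. Other changed calls were not traced to a cause, and the cause was not tested.

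The number of members that passed changed by over 1.5 times as follows. Smaller changes were in the number higher in N_Ag:N_0, which was 6 and became 4 with library totals, marker scores or the compared groups alone, 5 without the filter and 7 with both libraries left out, and in T_PI:N_PI, where 5 in place of 4 were higher with the compared groups alone. With DESeq2, 2 were higher in T_0:N_0, 2 lower in T_Ag:N_Ag and 3 lower in the Ag interaction. With DESeq2's size factors, and with the combination of tests used in the study, 2 were lower in the Ag interaction, and with the latter 2 were higher in T_0:N_0. With library totals, 1 was lower in T_Ag:T_0, N_PI:N_0 and T_PI:T_0, 2 were higher in T_Ag:N_Ag, 2 lower in T_PI:N_PI, and 1 higher and 2 lower in the PI interaction. Without the filter on low counts, 0 were lower in T_PI:N_PI, and 1 was higher and 0 lower in the PI interaction. With marker scores, 0 were lower in T_PI:N_PI, 0 higher in the Ag interaction, and 1 higher and 0 lower in the PI interaction. With sex, 1 was lower in N_PI:N_0 and T_PI:T_0, and 1 higher and 0 lower in the PI interaction. With the compared groups alone, 2 were lower in T_Ag:T_0, 4 in T_Ag:N_Ag and 2 in T_PI:N_PI, 0 higher and 2 lower in the Ag interaction, and 1 higher and 2 lower in the PI interaction. With N_0 replicate 1 and N_Ag replicate 3 left out together, chosen after seeing the data, 2 were lower in T_Ag:T_0, 4 higher and 1 lower in T_0:N_0, 3 higher and 2 lower in T_Ag:N_Ag, 2 lower in T_PI:N_PI, 2 higher and 4 lower in the Ag interaction, and 3 lower in the PI interaction.

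With each library left out in turn, the number lower ranged from 0 to 1 in N_PI:N_0, T_PI:T_0, T_0:N_0, T_PI:N_PI and the PI interaction and from 1 to 4 in the Ag interaction, and the number higher from 1 to 4 in T_0:N_0 and from 1 to 2 in T_Ag:N_Ag and both interactions. In N_Ag:N_0 the number higher ranged from 4 (without N_Ag replicate 1) to 7 (without N_0 replicate 1). In T_0:N_0 and the Ag interaction the highest counts came without N_0 replicate 1.

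Differences that changed sign had not passed the test, except *Jund* in N_Ag:N_0. With library totals, these were *Fos* (-0.024), *Jund* (-0.12) and *Batf3* (-0.085) in N_Ag:N_0, *Jun* (-0.11) and *Batf3* (-0.24) in T_Ag:T_0, *Jund* in T_0:N_0 (0.074), T_PI:N_PI (-0.060) and the PI interaction (-0.13), and *Fosl1* in T_Ag:N_Ag (0.14). With marker scores, they were *Jun* (-0.030) and *Batf3* (-0.23) in T_0:N_0, *Fosl1* (0.0061) and *Batf3* (-0.16) in T_Ag:N_Ag, *Fosb* (-0.26), *Jund* (-0.079) and *Batf3* (-0.48) in T_PI:N_PI and *Batf3* in the Ag interaction (0.074). With sex, *Batf3* turned in T_0:N_0 (-0.38), T_Ag:N_Ag (-0.26), the Ag interaction (0.12) and the PI interaction (0.64). With the compared groups alone, *Jund* turned in T_0:N_0 (0.045). With both libraries left out, *Jund* in T_0:N_0 (0.0035), *Fos* (0.17) and *Fosb* (0.49) in T_Ag:N_Ag and *Atf3* in the PI interaction (-0.42) turned.

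Over left-out libraries, *Fos* lay between -0.058 and 0.66 in N_Ag:N_0 and between -0.47 and 0.16 in T_Ag:N_Ag, *Fosb* between -0.81 and 0.48 in T_Ag:N_Ag, *Fosl1* between -1.64 and 0.12 in T_0:N_0, between -0.11 and 0.061 in T_Ag:N_Ag and between -0.14 and 1.61 in the Ag interaction, *Jund* between -0.15 and 0.083 in T_0:N_0 and between -0.017 and 0.22 in the PI interaction, *Junb* between -0.023 and 0.59 in the Ag interaction and *Atf3* between -0.41 and 0.94 in the PI interaction. *Batf3* lay between -0.11 and 0.78 in N_Ag:N_0, between -0.29 and 0.27 in T_Ag:T_0, between -0.22 and 0.34 in T_Ag:N_Ag, between -0.28 and 0.78 in T_PI:N_PI, between -0.71 and 0.17 in the Ag interaction and between -0.66 and 0.40 in the PI interaction.

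The labels do not say whether equal replicate numbers belong together. No pairing by number was seen, but 3 libraries per group are too few to exclude it. In no comparison were all 3 correlations of same-numbered deviations above 0.1 (they ranged from -0.195 to 0.11), and in at most 1 library per comparison was the own number the best match. With the replicate block 1 member was lower in T_PI:T_0, 2 were higher in T_Ag:N_Ag, and 1 was higher and 2 lower in the PI interaction.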
